A study of Mus musculus with 12 samples.

Results

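Livers in which Myc alone had been floxed for deletion were compared with control livers. The Myc group (3 arrays) came from AhCre-positive mice homozygous for a floxed Cmyc gene, and the WT group (3 arrays) from AhCre-positive wild-type mice with no floxed gene. These are 6 of the 12 arrays of the series, and each was read over 32115 probe sets after 61 control probe sets were set aside. AhCre is a Cre recombinase gene behind an inducible promoter that responds to beta-naphthoflavone, a ligand of the aryl hydrocarbon receptor. Mice of all groups, WT included, carried AhCre and received the inducer 3 times in 1 day at 80 mg/kg, with liver taken on day 4. The other 6 arrays, used here for a second comparison of Myc deletion, are 3 of mice homozygous for floxed Apc (Apc) and 3 of mice homozygous for both floxed genes (ApcMyc). Sex, age, strain and time of day are not given by the labels, and they do not say whether the arrays of a group are separate animals. The p-values therefore measure the spread between these arrays, which may be technical.

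Myc is a transcription factor that pairs with Max and binds the E-box CACGTG in promoters. In dividing tissue it is best known for raising genes of ribosome assembly, translation, nucleotide synthesis and the cell cycle. The resting adult liver holds little Myc, and most of its hepatocytes are not dividing, so the comparison asks what losing Myc changes in liver that has no other engineered lesion.

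Levels are given as log2 of the normalized signal plus 16, where the lowest possible value is 4.09, and differences are Myc minus WT on that scale with a standard error (SE). A probe set was called where limma's moderated test gave a Benjamini-Hochberg adjusted p under 0.05 over all 32115 probe sets. Adding 16 to every signal understates the change of dim genes. Gene names were available for 2176 genes, those with a probe set in lists the authors chose by testing these same arrays. Counts of named genes are therefore not independent of the groups, and they stand beside the counts over all probe sets.

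The arrays of the groups also differed in ways other than Myc. WT and Apc arrays carry titles of one style and Myc and ApcMyc arrays titles of another, so title style and the Myc genotype cannot be told apart in either comparison. The poly-A spikes, bacterial transcripts that a laboratory adds to RNA before labelling, averaged 6.54 to 6.77 over their 24 probe sets in the WT arrays and 4.39 to 4.45 in the Myc arrays. The Apc arrays gave 6.41 to 6.72 and the ApcMyc arrays 4.30 to 4.47, so these spikes followed the title style. The 18 hybridization spike probe sets, which report on a cocktail added just before hybridization, were alike at 10.19 to 10.42 in WT and 10.04 to 10.26 in Myc. The 18S ribosomal RNA probe sets averaged 9.68, 8.47 and 8.46 in WT replicates 1 to 3 and 6.01, 6.10 and 5.995 in the Myc arrays. The 3 prime minus 5 prime difference of beta-actin, a sign of RNA length, ran from 0.83 to 1.30 in WT and from 0.76 to 1.08 in Myc. The same difference for Gapdh ran from -0.12 to -0.04 in WT and from -0.05 to 0.25 in Myc, and from -0.43 to -0.17 in Apc and 0.11 to 0.24 in ApcMyc, where the groups do not overlap. The part of these differences in the results that follow was not tested. Median signals before normalization were 35.4 to 45.3 in WT and 59.5 to 78.9 in Myc, and arrays within a group correlated at 0.966 to 0.974 in WT and 0.977 to 0.981 in Myc.

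**Figure D1:**
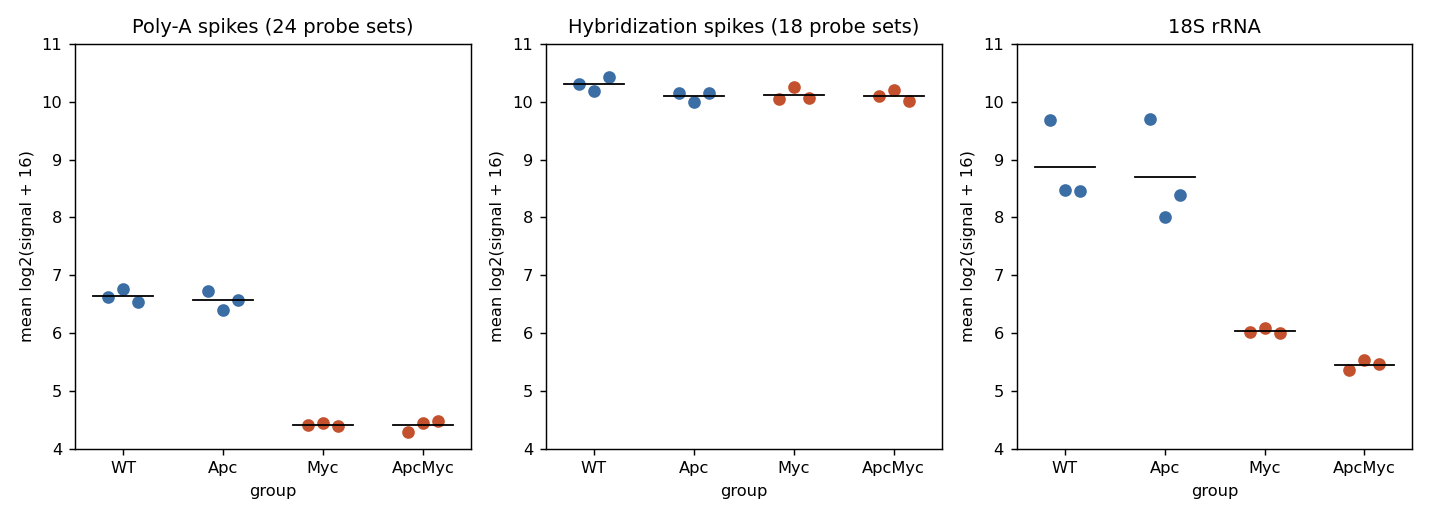
Control probe sets in all 12 arrays. Each point is 1 array, the y axis is the mean log2(signal + 16) over the control's probe sets, black bars are group means, blue marks WT and Apc and red marks Myc and ApcMyc. Poly-A spikes and 18S rRNA are low in every Myc and ApcMyc array, while hybridization spikes are level across groups.

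The labelled tissue was checked against hepatocyte genes fixed as markers. Apoa1, the main protein of high-density lipoprotein, stood at 13.92 in each WT array and at 13.74 to 13.75 in the Myc arrays. The value 13.92 is the highest that quantile normalization gives here, so its repeat in the WT arrays does not measure their agreement. Apob and Serpina1a, other plasma proteins made by hepatocytes, averaged 13.21 and 13.45 in WT and 13.03 and 13.07 in Myc. These levels are near the top of the range in both groups, and none of the 3 passed the test.

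Myc itself was low in control liver. Its named probe set read 6.56, 5.30 and 6.35 in the WT arrays and 4.89, 5.47 and 5.30 in the Myc arrays, and the groups overlapped at WT replicate 2. The difference of -0.85 ± 0.29 (SE, n = 3 per group) did not pass limma's test (adjusted p = 0.0833). Without WT replicate 2 it was -1.24 and passed (adjusted p = 0.0117), and with any other WT or Myc array left out it did not. Which exons are floxed is not stated, so the probe set may lie outside them and then checks nothing. Where Apc was floxed too, the same probe set read 8.73, 9.09 and 8.58 in Apc and 5.37, 5.49 and 5.51 in ApcMyc, with no overlap. That difference of -3.35 passed limma's test (adjusted p = 5.08e-05), and the difference between the 2 Myc effects passed as well, at -2.49 ± 0.40 (adjusted p = 0.0154). Aurka, a mitotic kinase and the other Myc network gene with a name here, differed by -0.08 (adjusted p = 0.918).

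Over the whole array 2925 probe sets were called, 9.11% of those tested. Of these 1302 were higher in Myc (4.05%) and 1623 lower (5.05%). At least 2-fold changes numbered 372 up and 636 down, and at least 4-fold changes 13 up and 39 down. The median size of a called change was 0.83 for rises and 0.91 for falls, while the median difference of all probe sets was 0.01. Among the 2176 named genes, each read by its brightest probe set, 333 rose (15.3%) and 285 fell (13.1%), with a median of 0.16. Arrays of the groups did not overlap for 17.2% of all probe sets in the upward direction and for 16.1% in the downward direction. Scaling arrays by their medians instead of by quantiles raised the share of calls that were rises from 44.5% to 59.6%. Leaving out Myc replicate 3 left 444 rises and 864 falls, and leaving out Myc replicate 2 left 449 and 800. Counts without Myc replicate 1 were 562 and 950, without WT replicate 2 598 and 866, and without WT replicate 3 606 and 923.

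The largest named rise and the next largest were in enzymes of drug and fatty acid oxidation. Cyp2c39, a cytochrome P450 of the retinoid- and drug-oxidizing 2C family, read 4.39, 4.49 and 6.001 in WT and 6.26, 10.55 and 11.06 in Myc. Its arrays were far apart within the Myc group, replicate 1 lying just above the highest WT array. The difference of 4.33 ± 1.22 passed limma's test narrowly (adjusted p = 0.0456), and without WT or Myc arrays in turn the adjusted p ran from 0.0107 to 0.157. Cyp4a14, a fatty acid omega-hydroxylase that is a textbook PPAR-alpha target, read 6.34, 5.91 and 5.23 in WT and 10.64, 7.54 and 10.25 in Myc. All Myc arrays were higher, by 3.65 ± 0.90 on average (adjusted p = 0.0267, and 0.0130 to 0.0971 with an array left out).

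Clec2h, a C-type lectin family member, was close to the lowest level in WT at 4.80, 4.73 and 4.79, and read 6.95, 7.83 and 8.40 in Myc. The rise of 2.95 ± 0.35 passed limma's test (adjusted p = 0.000636). Atox1, a copper chaperone, was bright in both groups, with 10.34, 9.37 and 9.29 in WT against 11.75, 11.58 and 11.50 in Myc. WT replicate 1 stood nearest to the Myc arrays for this gene, and the rise of 1.94 ± 0.27 passed (adjusted p = 0.00159). Further rises among the 12 largest were AW011956 (2.59), the secreted guidance factor Sema3f (2.49), BC048546 (2.01), Rusc2 (2.00), the pyrophosphate-forming ectoenzyme Enpp1 (1.91) and the phosphatidylcholine transfer protein Pctp (1.80).

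Ciart, a repressor of the CLOCK-BMAL1 activator of the circadian clock, was the rise that carried E-boxes in its promoter. Its signal was 4.65, 5.54 and 4.88 in WT and 8.20, 7.002 and 8.03 in Myc. All Myc arrays lay above all WT arrays, by 2.72 ± 0.40 (adjusted p = 0.00226). Among the 24 genes with the largest rises and falls 15 had a promoter in the RefSeq-derived table (assembly GRCm38.p6, 250 bases before to 50 after the start), and 2 of those held CACGTG, which reads the same on both strands. Both are printed 5′ to 3′ on the gene's strand with the E-box in capitals: the Ciart promoter at chr3:95882179-95882478 and that of Prdx4, among the largest falls, at chrX:155338411-155338710, both minus strand.
Ciart: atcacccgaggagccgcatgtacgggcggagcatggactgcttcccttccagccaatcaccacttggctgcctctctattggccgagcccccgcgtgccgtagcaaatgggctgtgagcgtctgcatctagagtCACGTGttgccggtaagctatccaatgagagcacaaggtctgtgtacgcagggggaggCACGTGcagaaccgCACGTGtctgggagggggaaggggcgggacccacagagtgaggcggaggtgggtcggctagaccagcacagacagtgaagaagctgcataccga
Prdx4: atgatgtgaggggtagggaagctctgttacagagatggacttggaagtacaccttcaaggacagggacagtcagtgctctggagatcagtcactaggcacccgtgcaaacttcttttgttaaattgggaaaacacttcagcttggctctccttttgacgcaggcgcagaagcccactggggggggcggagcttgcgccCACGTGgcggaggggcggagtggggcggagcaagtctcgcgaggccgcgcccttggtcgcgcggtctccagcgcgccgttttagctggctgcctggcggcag
The Ciart promoter holds 3 copies, beginning at bases 135, 193 and 207 of 300, and that of Prdx4 holds 1, beginning at base 199. One gene of this pair rose and the other fell. In promoters of all 27025 genes of the table the motif occurred in 8.09%. It occurred in 14.0% of named genes that rose (35 of 250), 10.8% of those that fell (22 of 204) and 11.2% of those not called (125 of 1120). The shares were not tested, and a match shows only that the letters are there.

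The largest named falls included enzymes, a nuclear RNA and an antioxidant protein. Prdx4, a peroxiredoxin of the endoplasmic reticulum, read 10.51, 10.38 and 10.29 in WT and 8.16, 7.79 and 7.66 in Myc. The arrays of each group lay close together, and the difference of -2.53 ± 0.23 passed limma's test (adjusted p = 0.000216). Malat1, a long noncoding RNA of nuclear speckles, read 9.89, 10.24 and 10.70 in WT against 7.99, 7.82 and 7.997 in Myc. It fell by 2.34 ± 0.24 (adjusted p = 0.000407). Of its 3 probe sets 2 fell, and the dimmest differed by -0.61 (adjusted p = 0.0801).

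Ugt2b38, a UDP-glucuronosyltransferase, had the largest fall of the genes read by their brightest probe set. It read 9.85, 8.80 and 9.76 in WT and 5.21, 5.19 and 8.13 in Myc, with Myc replicate 3 far from the other two. The difference of -3.29 ± 0.61 passed (adjusted p = 0.00692, and between 0.000247 and 0.0327 with an array left out). Nisch, an imidazoline-binding scaffold protein, fell by 2.17 ± 0.28 (adjusted p = 0.00104). Ttyh2, a tweety-family membrane protein, read 10.23, 10.06 and 10.19 in WT and 7.93, 7.87 and 8.43 in Myc. Both of its probe sets fell, at -2.08 and -2.095 (adjusted p = 0.00085 and 0.000371 by limma). The remaining large falls were LOC668215 (-2.65), BC006662 (-2.46), Ankrd33b (-2.45), LOC634842 (-2.37), the steroid enzyme Hsd3b5 (-2.21), the RNA polymerase III subunit Polr3k (-2.13), not called without WT replicate 2 or Myc replicate 2, and Dpys (-2.06), which breaks down pyrimidines.

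**Figure D2:**
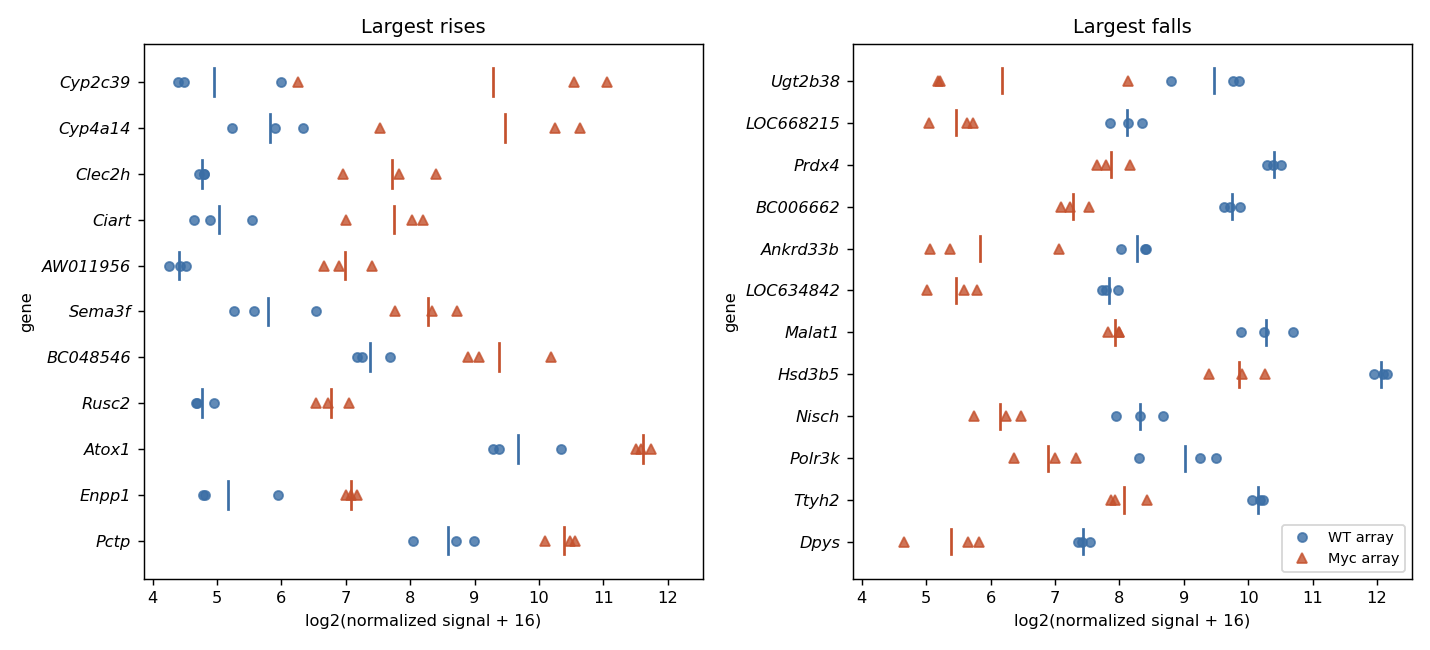
Of the 12 largest rises 11 (left), and the 12 largest falls (right), among named genes called in Myc minus WT whose arrays do not overlap. The x axis is log2(normalized signal + 16), blue circles are the 3 WT arrays, red triangles the 3 Myc arrays and vertical ticks the group means. Cyp2c39, Cyp4a14 and Ugt2b38 spread widely among Myc arrays, while Prdx4 is tight in both groups.

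Car3, carbonic anhydrase III and an abundant liver protein, was singled out after its values were seen, because it holds the largest fall of any called probe set. That probe set read 9.50, 10.73 and 11.10 in WT and 5.83, 4.72 and 5.53 in Myc, a difference of -5.08 ± 0.45 (limma adjusted p = 0.000211). All 4 of its probe sets fell, the others at -3.54, -1.22 and -0.74. The brightest of them, at 13.44 to 13.48 in WT, gave the smallest fall, so the size of the change in Car3 depends on the probe set read. Among probe sets without a name the largest rise was 3.62 and the lowest value -4.17. Of 269 named genes with 2 or more probe sets, 120 had at least 1 called, and 2 had probe sets called in opposite directions. Among the 58 members of the gene lists below that have more than 1 probe set, 10 were called on the brightest and on another, 6 on the brightest alone, and 5 on another alone (Axin2, Chd1, Laptm5, Mcl1 and Otc). Counts of list members rest on the brightest probe set. Lists and members were chosen with earlier results of these data known, so the shares are descriptive only. Shares of list members called are read beside the 15.3% of all named genes that rose and the 13.1% that fell.

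Among genes known to be higher in female than in male mouse liver called members rose, and among genes known to be higher in males called members fell. Of 14 female-biased genes measured 8 rose (57.1%, against 15.3% of all named genes) and 0 fell, with a median of 1.045 against 0.16. Besides Cyp2c39 and Cyp4a14 these were Acot3, Acot4, Fmo2, Trim24, Rtn4 and Slco1a4. The other probe set of Acot4 did not pass, at 0.31 (limma adjusted p = 0.389). Fmo2, a flavin monooxygenase, read 6.42, 5.89 and 6.16 in WT and 7.12, 7.72 and 8.97 in Myc, a rise of 1.78 ± 0.40 (limma adjusted p = 0.0185) that was not called without WT replicate 2 or 3 or Myc replicate 3. The summed signal of the list, on the log2 scale, was 10.38 to 10.68 in WT and 12.09 to 12.80 in Myc, with no overlap. Sult1e1, estrogen sulfotransferase, stayed at the bottom of the range with means of 4.22 in WT and 4.14 in Myc.

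Of 17 male-biased genes measured 0 rose and 4 fell (23.5%, against 13.1% of all named genes), with a median of -0.36. Hsd3b5, a 3-ketosteroid reductase expressed mainly in males, read 12.09, 12.15 and 11.96 in WT and 9.90, 9.39 and 10.27 in Myc. Elovl3, a fatty acid elongase, read 11.89, 11.11 and 11.51 in WT and 9.20, 10.34 and 9.18 in Myc. Their differences of -2.21 ± 0.31 and -1.93 ± 0.30 passed limma's test (adjusted p = 0.00168 and 0.00292). Cyp2u1 and Ugt2b38 were the other falls. The organic anion transporter Slco1a1 (0.12), Cyp7b1 (-0.65) and Mup3, a major urinary protein (-0.52), did not pass. Xist, Ddx3y, Eif2s3y, Kdm5d and Uty are not among the named genes, the labels give no sex, and the part of sex was not tested. Without WT replicate 1 the counts were 7 female-biased rises and 5 male-biased falls. Over the 6 WT and Myc arrays left out in turn the female-biased rises numbered 3 to 7, at 3 without WT replicate 3 or Myc replicate 3 and at 5 without WT replicate 2 or Myc replicate 1.

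A minority of zonation genes was called. Pericentral hepatocyte genes, expressed around the central vein under Wnt signals, gave 5 rises and 0 falls of 21 measured. The share of rises was 23.8%, against 15.3% of all named genes, and the median was 0.43. Cldn2, a tight junction protein, read 6.97, 7.10 and 6.71 in WT and 8.48, 8.01 and 8.28 in Myc, a rise of 1.33 ± 0.21 (limma adjusted p = 0.00337). Rhbg, an ammonium transporter, read 7.94, 7.66 and 7.61 in WT and 8.76, 9.04 and 8.63 in Myc, a rise of 1.08 ± 0.17 (adjusted p = 0.00352). The other rises were Slc16a10, Gstm3 and the glutamate transporter Slc1a2. For Slc16a10 the other probe set differed by 0.20 (limma adjusted p = 0.610), and the call was lost when its probe sets were averaged. Without Myc replicate 3 the count was 3. Glul, the glutamine synthetase that defines the pericentral layer, did not pass at 0.32 (adjusted p = 0.178), nor did the Wnt target Lgr5 at 0.57 (adjusted p = 0.0885). For the Wnt target Axin2 the brightest probe set did not pass at 0.79 (adjusted p = 0.0706), while its dimmer one rose by 0.57 (adjusted p = 0.0341). Of 12 Wnt target genes, each read by its brightest probe set, 1 was called, Tnfrsf19 (0.95, adjusted p = 0.0351), whose other 2 probe sets did not pass at 0.47 and 0.39. Tnfrsf19 was not called without any 1 of the WT arrays or without Myc replicate 2 or 3.

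Periportal genes, around the portal triad, gave 0 rises and 2 falls of 19 measured, with a median of -0.13. Serpina12, the serpin vaspin, fell by 1.67 ± 0.36 and Pigr, the receptor that carries immunoglobulin A into bile, by 0.68 ± 0.15 (limma adjusted p = 0.0156 and 0.0175). Without WT replicate 2 neither was called, and without any 1 Myc array 1 of them was. Over all named genes 15.3% rose and 13.1% fell, so the share of falls among periportal genes, 10.5%, is near that of all named genes. The urea cycle and amino acid genes Arg1, Gls2 and Hal differed by -0.36 to 0.23 and did not pass. For Arg1 the groups did not overlap, at 13.11, 13.17 and 13.17 in WT and 12.71, 12.82 and 12.82 in Myc. Its SE of 0.48 includes the scatter of the Apc arrays, at 11.06, 9.298 and 8.516. Otc, a urea cycle enzyme, did not pass on its brightest probe set at 0.07, while its other 2 fell, at -0.95 and -0.996 (limma adjusted p = 0.0463 and 0.0120). Bile acid genes gave 1 rise of 11 measured (9.09%), Slco1a4 (0.72), which was not called without WT replicate 1 or 3 or any 1 Myc array.

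Named genes of the translation apparatus fell more often than they rose. Of 8 cytosolic ribosomal protein genes with a name, of 81 listed, 6 fell and 0 rose, with a median of -0.95. The share of falls was 75%, against 13.1% of all named genes. Rps24 read 12.09, 11.64 and 11.62 in WT and 9.77, 9.99 and 9.96 in Myc, a difference of -1.88 ± 0.21 (limma adjusted p = 0.000505). Rps21 fell by 1.45 ± 0.16 and Rpl14 by 1.04 ± 0.17 (adjusted p = 0.000473 and 0.00431), with no overlap of the groups in either. All 6 falls were on probe sets with the suffix _x_at, whose probes can also bind other transcripts, and 7 of the 8 genes were read by such a probe set. Rpl26, the only member on another kind of probe set, differed by -0.44 (adjusted p = 0.0684).

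Probe sets of this suffix also fell more often over the whole array. Of all 1938 _x_at probe sets 13.4% fell and 3.46% rose, with a median of -0.15. Of the 24664 probe sets with the plain _at suffix 4.16% fell and 3.75% rose. The _x_at class made up 6.03% of probe sets and 15.96% of all falls. Among the 285 named falls 53 were on _x_at probe sets, out of 151 named genes read on this class. That is a larger share than among all named genes. The share of all named genes is therefore not a matched background for the ribosomal protein genes.

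Of 11 translation factors and tRNA synthetases 4 fell (36.4%) and 0 rose, with a median of -0.59. They were the synthetase genes Farsb (-1.02), Qars (-1.14) and Sars (-0.96) and the elongation factor subunit Eef1d (-0.70), and 2 of them were read on _x_at probe sets. Of 14 genes of the mitochondrial ribosome and respiratory chain 6 fell (42.9%) and 1 rose (7.14%), with a median of -0.45. Atp5e, a subunit of ATP synthase, read 11.60, 11.35 and 11.39 in WT and 10.60, 10.64 and 10.501 in Myc, and the complex I subunit Ndufs8 fell by 1.01 ± 0.24 (limma adjusted p = 0.0221). Without WT replicate 1, WT replicate 2 or any Myc replicate there were 3 such falls, without Ndufs8 in each case. The rise was Mrps25 (0.81), and the count of rises was 0 with any WT or Myc array other than WT replicate 1 left out. Ribosome assembly itself could hardly be read, since 3 of the 60 genes listed had a name: nucleolin (Ncl, 0.53), the RNA polymerase I factor Ubtf (0.17) and the helicase Ddx18 (-0.61), of which none passed (adjusted p = 0.105, 0.516 and 0.0649) and Ddx18 passed without Myc replicate 3.

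RNA processing, protein breakdown and chromatin genes also fell more often than they rose. Of 13 splicing and RNA helicase genes 7 fell (53.8%) and 2 rose (15.4%), with a median of -0.82. Of all named genes 13.1% fell and 15.3% rose. The falls were Malat1, the splicing regulators Luc7l2, Luc7l3, Rbm39 and Pnisr, the core spliceosome protein Snrpd3, and the helicase Ddx1. Luc7l2 read 10.58, 10.87 and 11.38 in WT and 9.30, 8.80 and 9.24 in Myc, a difference of -1.83 ± 0.25 (limma adjusted p = 0.00159). Sf3b3 and Hnrnpab rose, by 0.76 and 0.61, of which neither was called without WT replicate 2 or 3 or Myc replicate 1 or 2 and 1 without Myc replicate 3. Of these 9 called genes 1, Ddx1, was on an _x_at probe set.

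Of 7 ubiquitin and proteasome genes 4 fell (57.1%, against 13.1% of all named genes) and 0 rose. The proteasome lid subunit Psmd6 read 10.83, 11.02 and 10.90 in WT and 9.77, 9.76 and 9.61 in Myc, a difference of -1.20 ± 0.16 (limma adjusted p = 0.00118). Of 9 chromatin regulators 5 fell (55.6%) and 0 rose. The falls were led by Bptf, a subunit of a nucleosome remodeller, at 9.49, 9.48 and 9.62 in WT and 8.09, 8.37 and 8.23 in Myc. The proteasome group gave 2 falls without WT replicate 1 or 3 or Myc replicate 1 or 3, and the chromatin group 2 or 3 falls with any WT or Myc array left out.

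Few cell cycle genes were called. Of 30 measured 1 rose and 1 fell, with a median of 0.01. The fall was Cdk6, a G1 kinase, at 5.18, 6.35 and 6.13 in WT and 4.13, 4.91 and 4.34 in Myc (-1.43 ± 0.31, limma adjusted p = 0.0141), and the rise was the spindle factor Tpx2 (1.02, adjusted p = 0.0383). Tpx2 was not called with any 1 of the 6 WT and Myc arrays left out, nor Cdk6 without WT replicate 2 or 3 or Myc replicate 1 or 3. Cyclin D1 (Ccnd1), Cdk1 and Bub1 differed by 0.09, 0.07 and 0.04. The cell cycle inhibitor Cdkn1a differed by 1.18 and did not pass (adjusted p = 0.0924). Of 3 nucleotide and one-carbon genes measured 1 fell, the folate enzyme Mthfd1 (-1.97, on an _x_at probe set), while the polyamine enzyme Odc1, a known Myc target, differed by 0.68 (adjusted p = 0.0592) and was called higher without WT replicate 1.

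**Figure D3:**
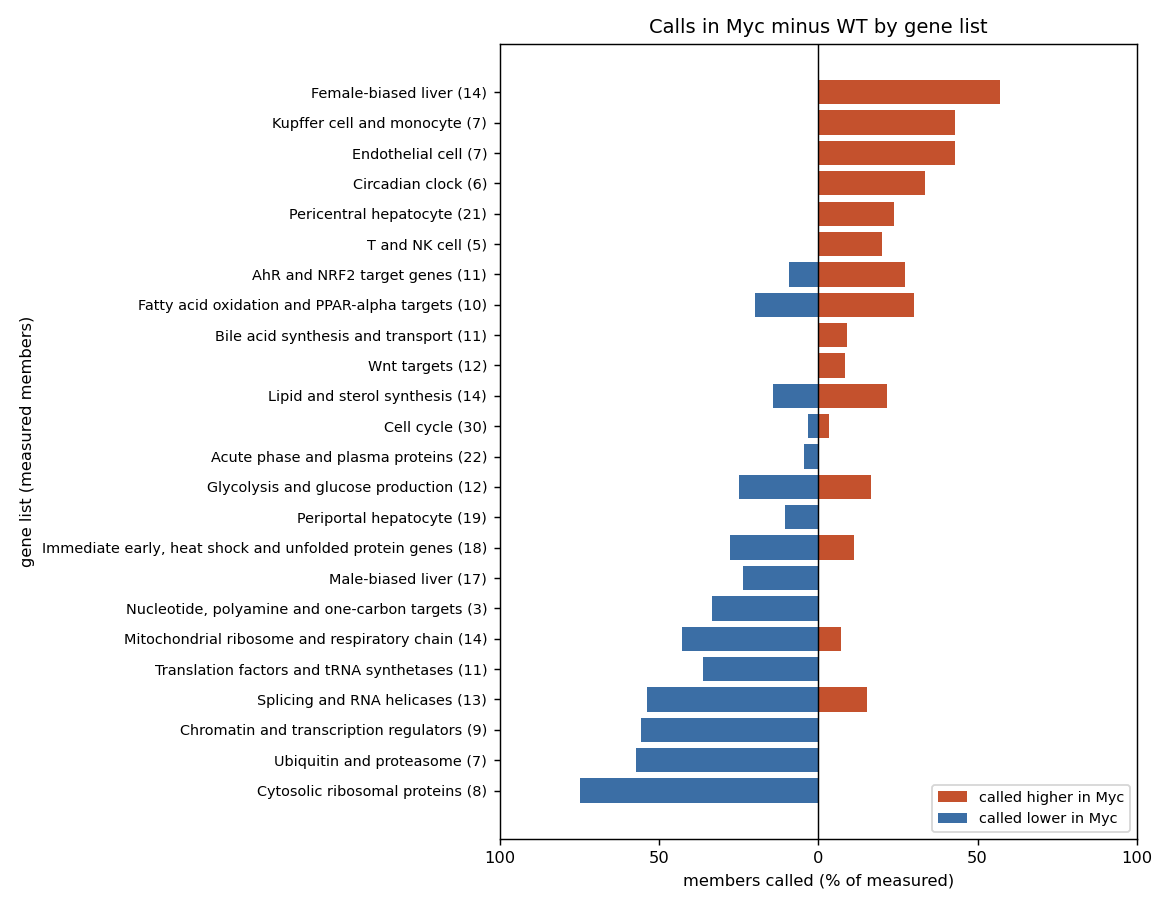
Members called in Myc minus WT in each gene list with at least 3 measured members and at least 1 call. Bars give the called share of the measured members (number in brackets) as a percentage, red to the right for higher in Myc and blue to the left for lower. Female-biased, Kupffer, endothelial, clock, pericentral, T and NK cell, bile acid and Wnt target lists hold rises only. Cytosolic ribosomal protein, proteasome, chromatin, translation factor, nucleotide, male-biased, periportal and acute phase lists hold falls only. The shares of all named genes, 15.3% higher and 13.1% lower, are not drawn.

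Metabolic lists held calls in both directions, and their shares are read beside the 15.3% of all named genes that rose and the 13.1% that fell. In glycolysis and glucose production 2 genes rose and 3 fell of 12 (16.7% and 25%). Pkm, the pyruvate kinase of dividing and nonhepatocyte cells, read 6.78, 6.09 and 5.84 in WT and 7.76, 7.58 and 7.65 in Myc, a rise of 1.43 ± 0.26 (limma adjusted p = 0.00631), and Pfkfb3 rose by 0.997. Taldo1 (-1.25), Tpi1 (-0.90) and the pyruvate dehydrogenase kinase Pdk1 (-1.19) fell. In lipid and sterol synthesis 3 rose, Scd2 and Fads2 among them, and 2 fell (Elovl3 and Insig1) of 14, shares of 21.4% and 14.3% near those of all named genes. Among PPAR-alpha targets and fatty acid oxidation genes 3 rose (Cyp4a14, Acot3 and Acot4) and 2 fell (Acaa1a and Cpt1a) of 10, both falls on _x_at probe sets. The rises in glycolysis numbered 1 without WT replicate 3 or Myc replicate 2 or 3, and the falls in lipid synthesis 1 without WT replicate 2 or 3 or Myc replicate 2 or 3. Among PPAR-alpha targets there was 1 rise without WT replicate 3 or Myc replicate 1 or 3, and 1 fall without Myc replicate 2.

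A joint list drawn up for target genes of NRF2 and of the aryl hydrocarbon receptor, which the inducer binds, was read next. Whether each member is such a target was not checked. Cyp1a1, the classic target of the aryl hydrocarbon receptor, read 11.02, 6.30 and 7.05 in WT and 10.24, 11.12 and 11.03 in Myc, so WT replicate 1 lay with the Myc arrays. The difference of 2.67 ± 1.06 did not pass limma's test (adjusted p = 0.134). Cyp1b1, another member, read 6.88, 5.815 and 4.31 in WT and 6.98, 7.61 and 7.64 in Myc. It did not pass either, at 1.74 ± 0.67 (limma adjusted p = 0.126). Nqo1, an NRF2 and aryl hydrocarbon receptor target, read 7.38, 5.96 and 5.99 in WT and 7.70, 7.96 and 7.68 in Myc (1.33 ± 0.37, adjusted p = 0.0427). Of the 11 genes in this joint list Atox1, Gstm3 and Nqo1 rose (27.3%, against 15.3% of all named genes) and Prdx4 fell (9.09%). Without WT replicate 3 or Myc replicate 2 or 3 there was 1 rise, and Nqo1 lost its call without WT replicate 2 or 3 or any 1 Myc array. In the clock list of 6 Ciart and the deubiquitinase Usp2 rose, Per3 did not pass at -0.90 (adjusted p = 0.0509) except without WT replicate 1, and Dbp differed by -0.24.

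In the list of immediate early, heat shock and unfolded protein genes 5 fell and 2 rose of 18 (27.8% and 11.1%). The falls were Canx, Pdia4, Sdf2l1, Dnajc3 and Hyou1, all known as proteins of the endoplasmic reticulum, while other members with roles there did not pass: Pdia3 (-0.49), Xbp1 (-0.14), Pdia6 (0.10) and Herpud1 (0.45). Pdia4, a disulfide isomerase, read 9.74, 10.25 and 9.70 in WT and 8.29, 8.94 and 8.23 in Myc, a difference of -1.41 ± 0.28 (limma adjusted p = 0.0110). The falls numbered 2 without Myc replicate 3, and 3 without WT replicate 2 or 3 or Myc replicate 1 or 2. The rises were the transcription factor Klf4 (1.11) and the phosphatase Dusp6 (0.89), and 0 rises were called without WT replicate 2 or 3 or Myc replicate 3 and 1 without Myc replicate 1 or 2. Among 22 acute phase and plasma protein genes 1 was called, Apoh, which fell, and with the deposited scores used without recovery of signals 10 were called lower. Read by their brightest probe sets, 0 of 4 p53 and cell death genes and 0 of 3 interferon genes were called, although the other probe set of Mcl1, a survival factor, fell by 1.07 (limma adjusted p = 0.00631) and Cdkn1a was called without WT replicate 3, while at an unadjusted level the comparison as a whole held 8176 probe sets with p under 0.05.

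Markers of Kupffer and endothelial cells included rises and no falls, and in bulk liver more cells of a type and more RNA per cell cannot be told apart. Of 7 Kupffer cell and monocyte genes 3 rose (42.9%, against 15.3% of all named genes) and 0 fell, with a median of 1.10. Timd4, a receptor of resident macrophages, read 7.06, 6.70 and 7.01 in WT and 8.58, 8.21 and 8.48 in Myc, a rise of 1.496 ± 0.22 (limma adjusted p = 0.00219). Cd68 and lysozyme (Lyz2) rose by 1.13 and 1.53 (adjusted p = 0.0211 and 0.0239), and Lyz2 lost its call without WT replicate 2 or 3 or any 1 Myc array. The summed signal of the list on the log2 scale was 10.99, 9.61 and 9.95 in WT replicates 1 to 3 and 11.67, 11.31 and 11.45 in Myc. WT replicate 1 was the highest of its group, and without it 5 of the 7 rose. Without WT replicate 2, WT replicate 3, Myc replicate 1 or Myc replicate 3, 1 rose.

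Of 7 endothelial genes 3 rose (42.9%) and 0 fell, with a median of 0.77: Flt4, Emcn and the cadherin Cdh5, by 1.11, 1.002 and 0.77. Their summed signal was 9.60, 8.38 and 8.71 in WT and 9.54, 9.55 and 9.67 in Myc, so WT replicate 1 lay among the Myc arrays, and without it 5 rose. Without WT replicate 3 none rose, and 1 rose without WT replicate 2, Myc replicate 2 or Myc replicate 3. Stellate cell and fibroblast genes showed the same array apart, at 10.38, 9.12 and 9.43 in WT against 10.03 to 10.26 in Myc, and 0 of 6 were called. Without WT replicate 1, 2 of the 6 rose, Vim by 1.46 and Col4a1 by 1.18 (limma adjusted p = 0.00443 and 0.0170). The T and NK cell list held 1 rise (Nkg7, 1.12) of 5, or 20%, near the 15.3% of all named genes. No member was called without WT replicate 2 or 3 or Myc replicate 2. The summed signal of this list was 7.01 to 8.02 in WT and 8.16 to 8.37 in Myc. The B cell and plasma cell list held 1 fall (Sdc1, -0.96, on an _x_at probe set) of 2, which was not called without WT replicate 2 or any 1 Myc array. Of 3 neutrophil, 5 red cell and 2 cholangiocyte genes 0 were called. The summed hepatocyte signal was 15.12 to 15.15 in WT and 14.85 to 14.94 in Myc.

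**Figure D4:**
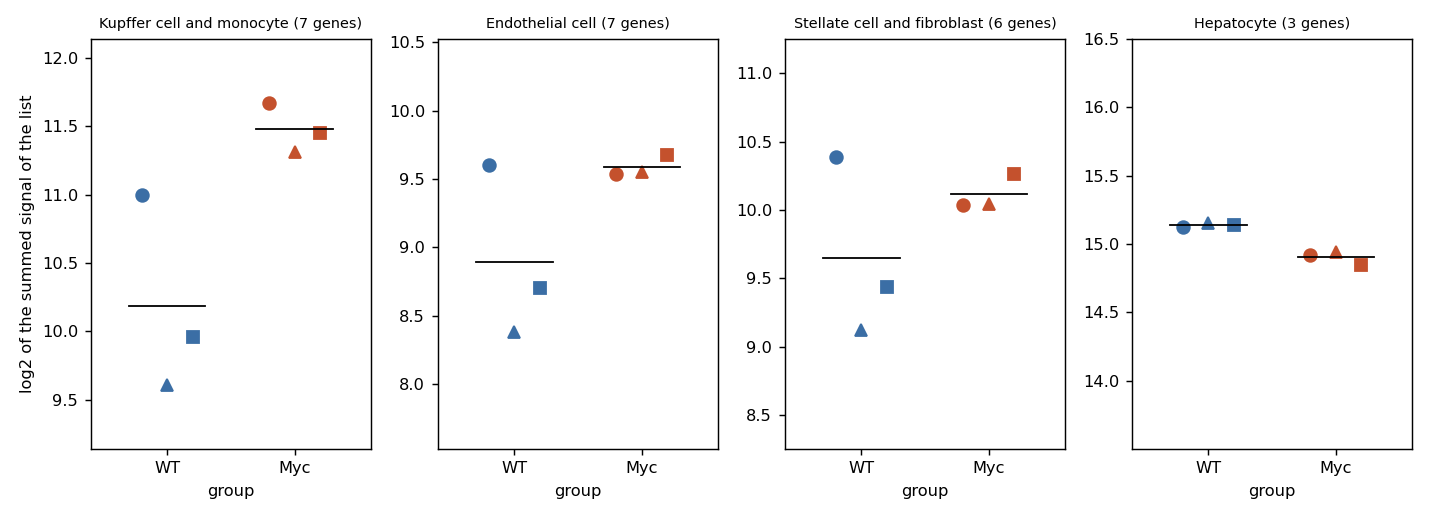
Summed signal of 4 cell type marker lists in the 3 WT (blue) and 3 Myc (red) arrays. The y axes are log2 of the summed normalized signal and each spans 3 log2 units, circles, triangles and squares are replicates 1, 2 and 3, and black bars are group means. WT replicate 1 is the highest WT array for Kupffer, endothelial and stellate lists, and lies among or above the Myc arrays for the last 2.

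The comparison of ApcMyc with Apc asks for the same deletion in livers whose Apc is floxed too, and shares no array with Myc against WT, although the title styles differ in the same way. It called 6702 probe sets (20.9%), 3375 up (10.5%) and 3327 down (10.4%). Of the 1302 rises in Myc minus WT 674 also rose there, which is 51.8% of the first list and 19.97% of the second. Of the 1623 falls 716 also fell, 44.1% and 21.5% of the lists. Opposite calls numbered 16 among the rises and 44 among the falls. Of the 24 genes named above as the largest rises and falls, 6 of 12 rises and 8 of 12 falls were called in the same direction. Prdx4 fell in both, at -2.53 and -2.85, and Ciart rose in both, by 2.72 and by 2.06. All 8 cytosolic ribosomal protein genes with a name, of 81 listed, fell in ApcMyc minus Apc. Kupffer cell and endothelial lists again held rises only, 6 of 7 and 5 of 7. The sex-biased and zonation counts of Myc minus WT did not recur. Female-biased genes gave 2 rises and 1 fall of 14, and male-biased genes 2 rises and 2 falls of 17. Pericentral genes gave 1 rise and 5 falls of 21, and periportal genes 8 rises and 0 falls of 19. These differences between the comparisons were not tested. Names came from lists the authors chose by testing these arrays, ApcMyc among them, so named counts here are not independent of the comparison. In ApcMyc minus Apc _x_at probe sets again fell more often (20.4%) than _at probe sets (8.09%). Poly-A spikes and 18S rRNA were lower in both, as given above.

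**Figure D5:**
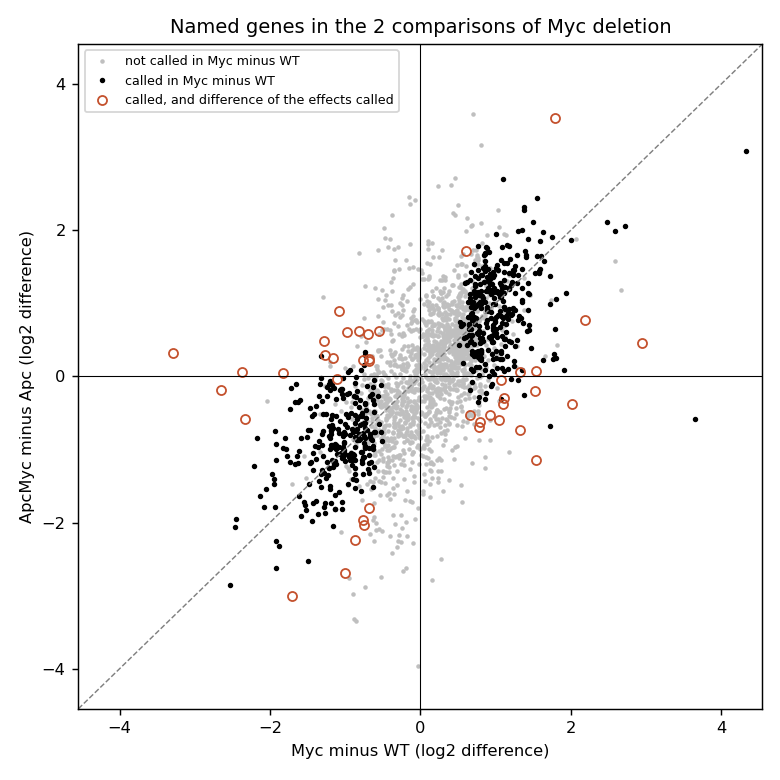
Log2 differences of the 2176 named genes in Myc minus WT (x axis) and in ApcMyc minus Apc (y axis), with equality as the dashed line. Grey points are genes not called in Myc minus WT, black points are called there, and red circles are called genes whose difference between the 2 effects was also called. Most called genes lie at the lower left and upper right, where 190 fell in both and 214 rose in both. Names come from lists the authors chose by testing these arrays, ApcMyc among them, so these counts are not independent of the y axis. Same-direction calls made up 64.3% of named rises and 66.7% of named falls, against 51.8% and 44.1% over all probe sets.

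The difference between the 2 Myc effects was called for 744 probe sets (2.32%), 386 with a higher value in ApcMyc minus Apc (1.2%) and 358 with a lower one (1.11%). Among calls of Myc minus WT it was called for 77 of the rises and 170 of the falls. Clec2h read 5.25, 4.10 and 4.10 in Apc and 4.83, 4.97 and 5.03 in ApcMyc, so it did not reach the level of the Myc arrays there. Its effects of 2.95 and 0.46 differed by -2.49 ± 0.49 (limma adjusted p = 0.0267). Psat1, an enzyme of serine synthesis, read 5.99, 4.17 and 5.06 in WT, 6.29, 6.75 and 6.77 in Myc, 7.74, 7.87 and 7.23 in Apc and 6.53, 6.12 and 6.76 in ApcMyc. It rose by 1.53 in Myc minus WT and fell by 1.14 in ApcMyc minus Apc, and these effects differed by -2.68 ± 0.52 (adjusted p = 0.0254). The rise was not called without WT replicate 2 or 3 or Myc replicate 2 or 3.

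Other genes were called in the difference of the effects without a call in Myc minus WT. Plat, tissue plasminogen activator, was at 5.18 to 6.15 in WT and 5.47 to 5.99 in Myc, and at 9.76 to 11.35 in Apc and 7.63 to 8.39 in ApcMyc. Mme, a membrane peptidase, likewise differed by 0.28 in Myc minus WT and by -2.50 in ApcMyc minus Apc. Thrsp, a lipogenic factor, differed by 0.70 and by 3.59, with Apc arrays at 8.54 to 9.37 against 11.34 to 12.89 in WT and Myc. Celf2, Ccnt2 and Slfn4 differed by -0.15, -0.49 and -0.81 in Myc minus WT, which did not pass, and rose by 2.45, 2.03 and 1.69 in ApcMyc minus Apc. The cell cycle list, with 1 call each way in Myc minus WT, gave 1 rise and 11 falls of 30 in ApcMyc minus Apc, with a median of -0.95. The difference between the lists' counts was not tested.

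Several genes that fell in Myc were already low in Apc, a comparison that shares the WT arrays and is given only side by side. Ugt2b38 was at 4.39 to 4.90 in Apc and 4.76 to 5.02 in ApcMyc, and LOC634842 at 4.92 to 5.47 and 5.14 to 5.55. Apc minus WT called 15.6% of all probe sets. Ugt2b38 differed by -4.89 in Apc minus WT and by -3.29 in Myc minus WT, and LOC634842 by -2.56 and -2.37. Rhbg differed by 4.15 and 1.08 and Cldn2 by 1.44 and 1.33 in the same 2 comparisons.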

How the data were processed

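Per the labels, Trizol and RNeasy served for total RNA and an Enzo BioArray kit for labelling. The sources used here do not give array type, scanner software or filters. Deposited columns hold a score: per array, the authors' log signal was centred and divided by a constant. Each array's constants were solved from the low scores, which step on a grid of 0.1 above a signal of 1, and 100% of recovered signals below 1000 lay within 0.01 of the grid. The design written for this work allowed for log2 or linear values, so signals were recovered before its test was run. All 12 arrays went through quantile normalization together, on to log2(signal + 16). A model of 4 group means was fitted with limma 3.58.1 (R 4.3.3), two-sided, adjusted by Benjamini and Hochberg over 32115 probe sets, and tested on simulated data.

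Names come from 3 SAM lists that the authors deposited, whose score column was not used, updated through RefSeq (GRCm38.p6): of 2975 probe sets 2517 had 1 symbol (1978 as in the table, 376 updated, 163 unmatched), 204 several, 230 none and 24 were controls. The other 29598 tested probe sets are unnamed. The brightest probe set stands for a gene.

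Genes are named by a rule: the 12 largest called rises and falls without overlap of arrays, named Myc network genes, up to 4 members of smallest p per pathway list, the 2 brightest per cell type list, and the 5 largest called each way in the difference of effects. Other genes appear as members of the 36 gene lists (35 with a measured member). Some genes so chosen are not reported here. Members and lists were chosen with earlier results of these data known. The number of arrays limits the precision. Alternatives were other scalings, the scores themselves, pseudocounts 1 and 64, a variance trend, a filter on dim probe sets, fewer groups, each array left out, and probe sets averaged per gene. Python 3.11.15 was used with matplotlib 3.10.9, SciPy 1.17.1, pandas 2.3.3 and NumPy 2.4.6.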

Additional observations from a re-analysis of the deposited data

Results flagged for a closer look

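For 22 of the genes named by the rule the Myc effect differed between livers with floxed Apc and livers with Apc intact, by limma's test of the difference (ApcMyc minus Apc, less Myc minus WT, adjusted p under 0.05). Among genes that rose in Myc minus WT the effect was smaller or turned with Apc floxed: the difference was -2.49 for Clec2h, -2.39 for BC048546, -2.68 for Psat1, -1.28 for Cldn2, -1.48 for Acot4 and -1.13 for Rhbg. For Acot4 this rests on the brightest probe set, and its other one did not pass in Myc minus WT. Among genes that fell it was 3.62 for Ugt2b38, 2.46 for LOC668215, 2.44 for LOC634842, 1.75 for Malat1 and 0.92 for Pigr. In Apc, Ugt2b38 and LOC634842 were already low, as given above, which left little room above the lowest possible value of 4.09 for a further fall. The part of this limit was not tested. Genes not called in Myc minus WT differed by 2.89 for Thrsp, 2.60 for Celf2, 2.51 for Ccnt2, 2.51 for Slfn4, 1.75 for Kdr, 1.67 for H2-D1, 1.46 for Ubtf and 1.12 for Gldc. Those whose effect was lower with Apc floxed were Plat at -2.94, Mme at -2.77 and Myc at -2.49. Title style differs within each effect in the same way, and its part in these differences was not tested.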

How the results depend on the processing

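No paired analysis was possible because nothing in the labels links a WT array to a Myc array. The Myc array titles carry no replicate number, and numbers were given in accession order. Of 83 named genes called in Myc minus WT, 67 were called under every other scaling, pseudocount, filter, variance trend or set of arrays, 58 with each WT or Myc array left out, and 56 under all of these; none reversed. Calls were lost under at least 1 for 27, among them Cyp2c39, Cyp4a14, Dpys, Polr3k, Psat1, Lyz2, Nqo1, Fmo2, Slco1a4, Tnfrsf19, Tpx2, Cdk6, Insig1, Klf4, Gstm3, Serpina12 and Pigr. Probe sets called numbered 2925 in Myc minus WT, 2111 (scores quantile normalized) to 3995 (pseudocount 64) in other settings and 1249 to 3457 with an array left out. ApcMyc minus Apc ranged from 4554 to 6787 with an array left out, against 6702. The difference of the Myc effects was the most sensitive: against 744 calls there were 1207 with median scaling, 162 with the scores as deposited, 149 with scores quantile normalized, 194 with pseudocount 1, 1586 with pseudocount 64, 1309 with a variance trend, 1399 with dim probe sets left out, and 159 to 929 with an array left out; the cause was not tested. In 4 equal groups of probe sets by signal level, from dimmest to brightest, 1.06%, 2.70%, 4.96% and 7.50% of probe sets rose, so dim genes limit what could be called.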
